A study of Oryza sativa with 6 samples.

Results

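The transcriptome of the rice mesocotyl after 24 h of light was compared with that at 5 days of darkness. Seedlings of the indica cultivar P25 had first spent 5 days in the dark in both cases, so the illuminated seedlings were 1 day older at sampling. Each condition was represented by 1 library of poly(A) RNA made from 1 RNA pool. The range of dark values was taken from 3 libraries, sampled after 1, 3 and 5 days of darkness, and the 30 min and 60 min light libraries are given where they add to a value. The sources used here state neither light quality nor intensity, and none of the 6 samples was kept dark for the extra day. FPKM values carry no sequencing depth. Of 35500 loci in the table, 20692 reached at least 1 FPKM in the 24 h light library or the 5-day dark library and were compared. FPKM counts fragments relative to transcript length and to all fragments of a library, so levels can be set side by side between genes. Differences are log2((24 h light FPKM + 1)/(5-day dark FPKM + 1)). A positive difference means a higher level after 24 h of light, and the added 1 makes the differences of weakly expressed loci smaller than their plain ratios. Loci are called higher or lower once the difference reaches 1 in size, that is 2-fold. With 1 library per condition only sizes can be given, without any test, and no difference below has a replicate check.

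The mesocotyl is the stem-like axis between the seed and the base of the coleoptile. In darkness it lengthens and pushes the shoot towards the soil surface, and light stops this growth. Phytochromes, cryptochromes and phototropins perceive the light. Active phytochromes lead to the removal of PIF transcription factors, and the ubiquitin ligase COP1 removes growth-limiting factors such as HY5 in the dark. Gibberellin, auxin, brassinosteroid, ethylene and jasmonate act on cell extension in this organ, which also depends on cellulose synthesis, on wall-loosening expansins and on later stiffening by lignin and peroxidases.

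After 24 h of light 2750 loci were higher (13.3% of those compared) and 3436 were lower (16.6%), while 14506 lay within 2-fold. Each list count below is to be read beside these shares. The median difference over all loci was -0.03. Among the higher loci, 2074 (10.0% of all compared) also lay above the 1-day and 3-day dark libraries. Among the lower loci, 1168 (5.64%) lay below all 3 dark libraries, and 2268 had a 24 h value inside the dark range. The 2 directions thus differed in how much of them stood outside darkness, 75.4% of the higher loci and 34% of the lower loci. The dark range uses FPKM as listed. With median-ratio scaling of the libraries the gap was smaller. Then 1844 of 2702 higher loci lay above and 1392 of 3460 lower loci below all 3 dark libraries. An 8-fold difference or more was reached by 144 higher loci, of which 123 were above the dark range, and by 257 lower loci, of which 109 were below it. A locus can enter the comparison through either library. Of the higher loci, 1216 were under 1 FPKM at 5 days of darkness, and of the lower loci 1775 were under 1 FPKM after 24 h of light. In whole tissue, fewer cells of a type and less RNA per cell cannot be told apart.

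**Figure D1:**
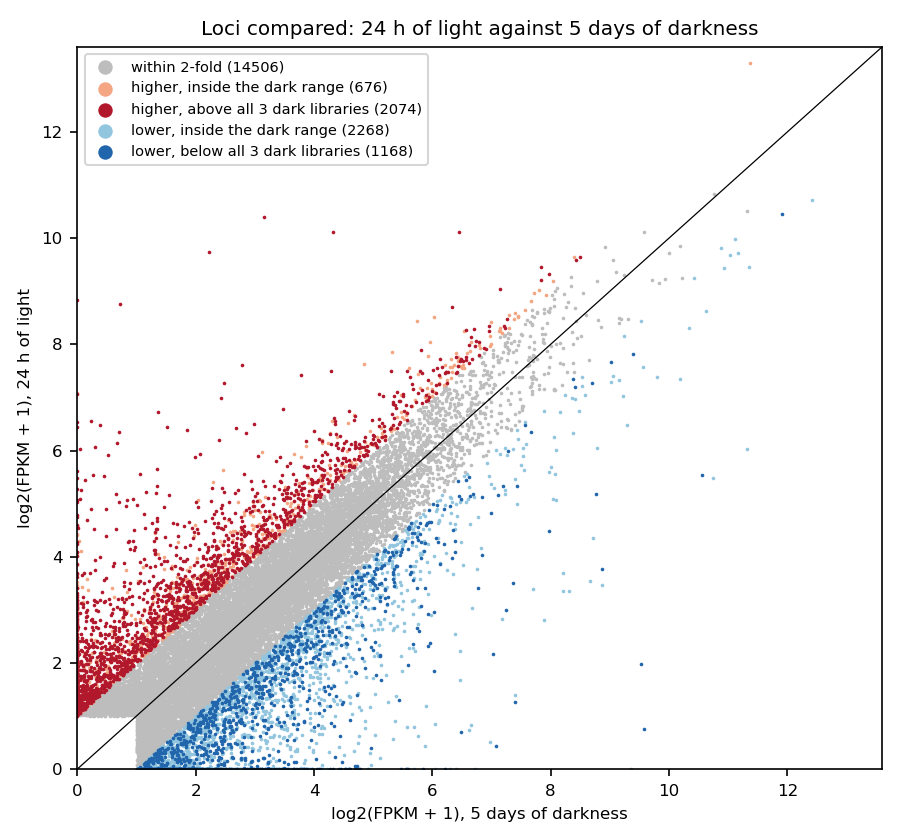
Level of each of the 20692 compared loci after 24 h of light (vertical axis) against its level at 5 days of darkness (horizontal axis), both as log2(FPKM + 1), with the line of equal levels. The 2074 dark red points are higher and above all 3 dark libraries, and the 2268 pale blue points are lower but inside the dark range.

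The dark libraries were not alike, above all for plastid genes. The 5-day dark and the 60 min light library held high levels of photosynthesis transcripts, and the 1-day dark, 3-day dark, 30 min and 24 h light libraries held low ones. The 10 measured leaf-blade markers (Rubisco small subunits, antenna proteins and phosphoenolpyruvate carboxylase kinases) summed to 85, 41.3 and 220.1 FPKM at 1, 3 and 5 days of darkness and to 53.2, 869.9 and 89.6 FPKM after 30 min, 60 min and 24 h of light. Of them 5 were listed at 0 at 3 days and 2 at 30 min, and none at 24 h or 5 days. Markers of the shoot meristem and leaf primordium, 12 KNOX, YABBY, rough sheath and growth-regulating factor loci, summed to 88.3 FPKM after 24 h of light, against 124 FPKM at 5 days of darkness. Their sums in the other 4 libraries ran between 117 FPKM (30 min of light) and 228 FPKM (60 min), and no marker was listed at 0 in any library. The 39 shoot-surface markers summed to 358 FPKM at 24 h of light against 384 in 5-day darkness, with 1 at 0 after 24 h, and the 6 seed markers to 66 FPKM at 24 h of light against 72.2 in 5-day darkness. The 2 measured root markers summed to 53.2 FPKM at 24 h of light against 29.8 in 5-day darkness, with 53.4 FPKM at 30 min. What part tissue content or the identity of the samples has in any result below was not tested. Set against the 3-day dark library, in a comparison that shares the 24 h library, 3526 loci were higher (18.1% of 19454 compared) and 1547 lower (7.95%), and the median over all loci was 0.33.

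The proteins that protect cells from drying had the highest median difference of the 48 gene lists. LEA proteins and dehydrins are hydrophilic proteins that accumulate in maturing seeds and in tissue short of water, many of them under control of abscisic acid. Of 16 loci, 12 were measured, 10 were higher, all 10 of them above the 3 dark libraries, and none was lower. The median difference was 2.38, and 4 of the 12 loci were under 1 FPKM at 5 days of darkness. Dehydrin Rab16D (ZS11g0389900) had 0.0402, 0.882 and 3.69 FPKM at 1, 3 and 5 days of darkness and 2.06, 1.46 and 859 FPKM after 30 min, 60 min and 24 h of light. Only the 24 h library was high, and the difference was 7.52. The group 3 LEA locus ZS05g0563700 had 0.81, 1.3 and 5.86 FPKM at 1, 3 and 5 days of darkness and 15.1, 5.89 and 195 FPKM after 30 min, 60 min and 24 h of light, a difference of 4.84. A second group 3 locus, ZS01g0565700, had 0.581, 0.336 and 0.596 FPKM at 1, 3 and 5 days of darkness and 8.33, 10.5 and 69.6 FPKM after 30 min, 60 min and 24 h of light, and was thus above its dark values at 30 and 60 min as well. Embryonic abundant protein 1 (ZS05g0340600) stood at 39.2 FPKM after 24 h of light, against 1.55 FPKM at 5 days of darkness, and had 0.188 and 0 FPKM at 1 and 3 days of darkness. The Lea5-D locus ZS01g0233800 followed another course, with 2.13, 2.5 and 9.25 FPKM at 1, 3 and 5 days of darkness and 215, 92.5 and 54.5 FPKM after 30 min, 60 min and 24 h of light, so its highest value was at 30 min. The dehydrin Rab16C (ZS11g0390200) was listed at 0 at 5 days of darkness and had 5.66 FPKM after 24 h of light. Rab16C and Rab16D are close relatives, so reads may be shared between them. The measured LEA loci within 2-fold were dehydrin 13 (ZS03g0582000), with 286 FPKM at 24 h of light against 199.5 in 5-day darkness, and the other Lea5-D locus (ZS03g0318700), with 18.1 FPKM at 24 h of light against 9.69 in 5-day darkness.

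**Figure D2:**
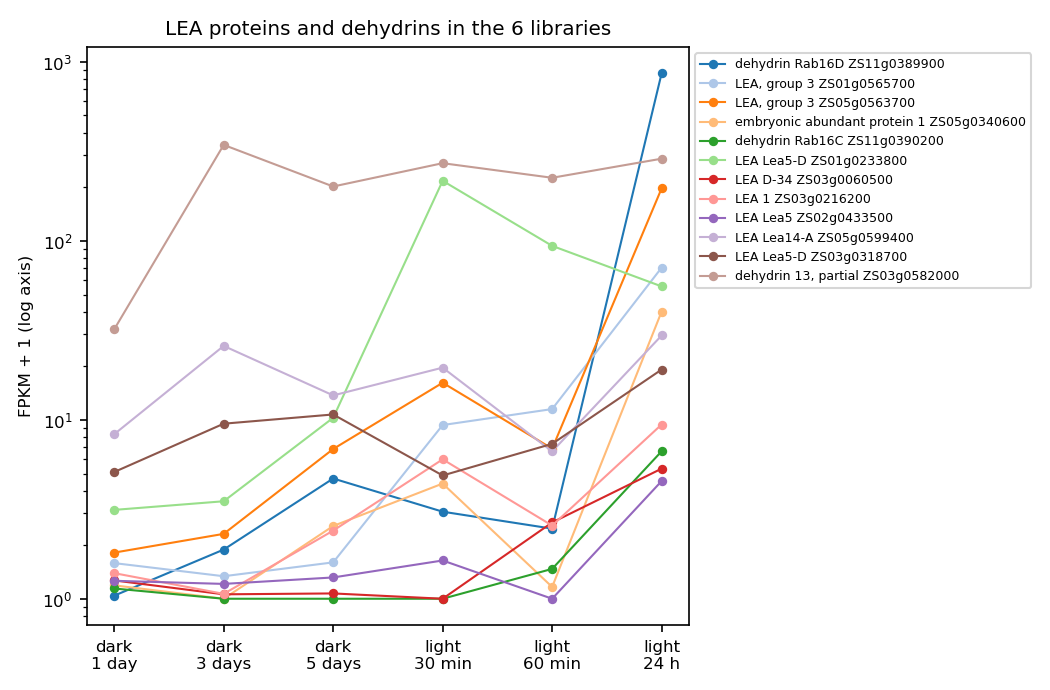
FPKM + 1 (log axis) of the 12 measured LEA and dehydrin loci in the 6 libraries, 1 line per locus. Rab16D reached 859 FPKM at 24 h and stayed below 4 FPKM elsewhere, while the Lea5-D locus ZS01g0233800 was highest at 30 min with 215 FPKM.

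Other loci with the largest higher values came from several protein classes. Among loci with a product name, above 0 in both libraries and above the dark range, the largest difference was 8.04. It belonged to a predicted protein without known function (ZS08g0011000), which had 0.436, 0.536 and 0.65 FPKM at 1, 3 and 5 days of darkness and 0.26, 0.36 and 434 FPKM after 30 min, 60 min and 24 h of light. An uncharacterized locus, ZS09g0270400, was the most abundant of the higher loci above the dark range, with 0.0732, 0.222 and 7.92 FPKM at 1, 3 and 5 days of darkness and 312, 8.0 and 1345 FPKM after 30 min, 60 min and 24 h of light. It was high at 30 min and 24 h but not at 60 min. A predicted protein, ZS11g0390400, had 1106 FPKM after 24 h of light, against 19 FPKM at 5 days of darkness, and lay between 0.95 and 7.83 FPKM in the other 4 libraries. The cysteine protease annotated as stem bromelain (ZS09g0427100), a papain-like enzyme, stood at 93 FPKM after 24 h of light, against 0.181 FPKM at 5 days of darkness, with 5.83 FPKM at 60 min. NADP-dependent malic enzyme (ZS01g0608000), which releases carbon dioxide from malate, had 81 FPKM after 24 h of light, against 0.623 FPKM at 5 days of darkness. It was under 1 FPKM in each of the other 5 libraries. A putative transporter named arsB (ZS03g0015500) had 105 FPKM at 24 h of light against 1.57 in 5-day darkness, and a protease inhibitor-like locus (ZS01g0485800) 37.4 FPKM at 24 h of light against 0.0457 in 5-day darkness. Both had intermediate values at 30 min (9.02 and 3.1 FPKM). Further named loci were ZS06g0409000 (88.6 FPKM at 24 h of light against 0.302 in 5-day darkness), ZS06g0292000 (66.3 FPKM at 24 h of light against 0.23 in 5-day darkness), ZS01g0422600 (45.6 FPKM at 24 h of light against 0.196 in 5-day darkness) and ZS03g0067700 (32.9 FPKM at 24 h of light against 0.0268 in 5-day darkness), all without an assigned function.

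Genes of abscisic acid signalling were mostly within 2-fold. The hormone binds receptors that block PP2C phosphatases, which frees the SAPK (SnRK2) kinases. The list gave 7 of 53 measured loci higher (5 above all 3 dark libraries) and 4 lower (2 below all 3), with a median difference of 0.12, and its share of higher loci was close to the 13.3% over all loci. Protein phosphatase 2C 59 (ZS06g0632600) had 1.16, 1.11 and 2.22 FPKM at 1, 3 and 5 days of darkness and 3.51, 5.06 and 23.4 FPKM after 30 min, 60 min and 24 h of light, with 24 h the only high library. Protein phosphatase 2C 51 (ZS05g0589700) had 5.15 FPKM at 24 h of light against 0.203 in 5-day darkness, and the ABA-inducible protein PHV A1 (ZS04g0741300), itself a LEA protein in barley, had 7.91 FPKM at 24 h of light against 0.254 in 5-day darkness. In the other direction protein phosphatase 2C 57 (ZS06g0522000) had 15.6 FPKM at 24 h of light against 39.3 in 5-day darkness, inside the dark range. The kinase SAPK2 (ZS07g0528900) was abundant and higher at 369.96 FPKM at 24 h of light against 174 in 5-day darkness, but the 1-day dark library held 399 FPKM. SAPK4 (ZS01g0721500) was lower, at 23.9 FPKM at 24 h of light against 49 in 5-day darkness, and below all 3 dark libraries.

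Photosynthesis genes were mostly lower after 24 h of light than at 5 days of darkness, and most of these lay inside the dark range. Photosystem and electron transport subunits split light energy into electron flow, antenna proteins hold chlorophyll, and the Calvin cycle fixes carbon dioxide. Among photosystem and electron transport loci 14 of 21 were lower, 2 of them below all 3 dark libraries, and 2 were higher, with a median difference of -2.24. The Calvin cycle list had 8 of 14 lower and none higher (median -1.86), and 1 lay below the dark range. The filter bears on these counts too. In these lists 4 of 21 photosystem and 7 of 14 Calvin cycle loci were under 1 FPKM after 24 h of light. Such loci entered only through the 5-day dark library, and over all loci they were 2795 of 20692. Set against the 3-day dark library, these lists had medians of the opposite sign. Photosystem loci then had 11 of 18 higher (median 1.07), antenna loci 4 of 5 (median 1.66), and the Calvin cycle 2 of 8 (median 0.45), beside 18.1% higher over all loci. A locus listed at 0 at 3 days enters this comparison only through the 24 h library, and is then higher by the rule itself. Of the loci measured against 5-day darkness, 5 of 21 photosystem, 5 of 6 antenna and 3 of 14 Calvin cycle loci were listed at 0 at 3 days. The change of sign thus rests in part on the filter. Ferredoxin-1 (ZS08g0011300), the electron carrier after photosystem I, had 2.49, 0.188 and 87.7 FPKM at 1, 3 and 5 days of darkness and 0.374, 186 and 2.22 FPKM after 30 min, 60 min and 24 h of light. The 5-day dark and 60 min libraries were high and the other 4 low. The small subunit of Rubisco (ZS12g0195100) had 13.9, 0.142 and 125 FPKM in the dark series and 0.473, 42.3 and 0.43 FPKM in the light series, given in order of time, with the largest difference of the list, -6.46. Sedoheptulose-1,7-bisphosphatase (ZS04g0233900) had 0.351 FPKM at 24 h of light against 57.8 in 5-day darkness, and was listed at 0 at 3 days and at 30 min. The A subunit of chloroplast glyceraldehyde-3-phosphate dehydrogenase (ZS04g0557100) had 0.874 FPKM at 24 h of light against 40.3 in 5-day darkness. The large subunit of Rubisco (ZS05g0437000) was listed at 0 after 24 h of light and had 13.3 FPKM at 5 days of darkness. Plastocyanin (ZS06g0010500) ran the other way, with 2.39 FPKM at 24 h, listed at 0 at 5 days of darkness, and 42.6 FPKM at 60 min.

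Antenna genes did not form a uniform group. Of 6 measured loci 3 were lower and none was below the dark range (median -1.17). CP29.1 (ZS07g0459100), an inner antenna protein of photosystem II, had 0.18, 0 and 12.9 FPKM at 1, 3 and 5 days of darkness and 0.0618, 83.6 and 1.94 FPKM after 30 min, 60 min and 24 h of light. The antenna loci 8 (ZS02g0110600) and 1B-21 (ZS06g0257900) had 0.726 FPKM at 24 h of light against 6.54 in 5-day darkness and 2.29 FPKM at 24 h of light against 9.07 in 5-day darkness. The remaining antenna loci lay within 2-fold, ZS03g0506800 at 2.17 FPKM at 24 h of light against 4.22 in 5-day darkness, ZS01g0462400 at 4.91 FPKM at 24 h of light against 4.66 in 5-day darkness, and the merged locus ZS07g0476900;ZS07g0477000 at 29.4 FPKM at 24 h of light against 25.1 in 5-day darkness. All 6 had their highest value at 60 min of light, up to 327 FPKM for ZS01g0462400. Early light-induced proteins, relatives of the antenna that appear when etiolated tissue is lit, had 2 of 3 loci higher, both above the dark range. Both were under 1 FPKM at 5 days of darkness and so entered the comparison only through the 24 h library. Over all loci 13.3% were higher. HV58 (ZS01g0151600) was listed at 0 in the 3 dark libraries and had 0.501, 11.4 and 3.84 FPKM after 30 min, 60 min and 24 h. HV60 (ZS07g0092400) had 1.44 FPKM at 24 h of light against 0.0217 in 5-day darkness, with 9.46 FPKM at 60 min.

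The chlorophyll synthesis genes past 2-fold were all lower. Of 16 loci, 14 were measured, 8 were lower, 2 of these below the dark range, and none was higher (median -1.28, and 0.66 against 3-day darkness). Protochlorophyllide reductase B (ZS10g0390600), the light-dependent step, had 1.05, 0.307 and 15.8 FPKM at 1, 3 and 5 days of darkness and 0, 43.4 and 1.56 FPKM after 30 min, 60 min and 24 h of light. The oxidative cyclase of magnesium-protoporphyrin (ZS01g0189000) had 1.31 FPKM at 24 h of light against 16.2 in 5-day darkness. Both subunits of magnesium chelatase, which commits porphyrin to chlorophyll, were lower. ChlI (ZS03g0463800) stood at 0.708 FPKM at 24 h of light against 6.71 in 5-day darkness, below all 3 dark libraries, and ChlH (ZS03g0216600;ZS03g0216700) at 1.5 FPKM at 24 h of light against 6.01 in 5-day darkness. Coproporphyrinogen-III oxidase (ZS04g0741500), an earlier step, had 16 FPKM at 24 h of light against 82.4 in 5-day darkness, again below the dark range. Protoporphyrinogen oxidase (ZS01g0195700) had 2.74 FPKM at 24 h of light against 9.33 in 5-day darkness and uroporphyrinogen decarboxylase 2 (ZS03g0228200) 6.6 FPKM at 24 h of light against 15.2 in 5-day darkness. Divinyl chlorophyllide reductase (ZS03g0242600) was listed at 0 after 24 h of light and had 3.13 FPKM at 5 days of darkness. The members within 2-fold were glutamate-1-semialdehyde aminomutase (ZS08g0621800, 3.93 FPKM at 24 h of light against 8.16 in 5-day darkness), chlorophyll synthase (ZS05g0340500, 15.9 FPKM at 24 h of light against 28.1 in 5-day darkness), both chlorophyllide a oxygenases (ZS10g0458100, 2.17 FPKM at 24 h of light against 0.79 in 5-day darkness, and ZS10g0458400, 5.45 FPKM at 24 h of light against 4.41 in 5-day darkness), an oxygen-independent coproporphyrinogen oxidase (ZS12g0162800, 2.21 FPKM at 24 h of light against 3.5 in 5-day darkness) and a uroporphyrinogen methyltransferase (ZS01g0499500, 2.6 FPKM at 24 h of light against 2.49 in 5-day darkness).

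Other plastid lists also had more lower than higher loci against 5 days of darkness, but not against 3 days. Plastid ribosomal proteins had 18 of 33 loci lower, 5 of them below the dark range, and 2 higher (median -1.42). Against the 3-day dark library 7 of 32 loci were higher and 1 lower (median 0.50), and the carotenoid and photorespiration lists each had 0 lower loci. L6 (ZS03g0693900) had 1.5, 0.0596 and 24.9 FPKM in the dark series and 0.0686, 23.7 and 0.0397 FPKM in the light series, again in order of time, so 24 h was its lowest library. Carotenoid synthesis had 5 of 12 loci lower and none below the dark range. Of the 12 loci 4 were under 1 FPKM after 24 h of light and so entered only through the 5-day dark library. Violaxanthin de-epoxidase (ZS04g0449800), an enzyme of the xanthophyll cycle, had 0.715 FPKM at 24 h of light against 17.1 in 5-day darkness, while phytoene synthase 2 (ZS12g0506100), the entry step of the pathway, had 5.66 FPKM at 24 h of light against 2.93 in 5-day darkness. Photorespiration had 3 of 9 lower. Glycolate oxidase GLO1 (ZS03g0729700) had 0.574 FPKM at 24 h of light against 16.6 in 5-day darkness and serine-glyoxylate aminotransferase (ZS08g0585100) 5.51 FPKM at 24 h of light against 41.2 in 5-day darkness, but serine hydroxymethyltransferase 4 (ZS11g0392400) had 171 FPKM at 24 h of light against 86.9 in 5-day darkness. The transcription factors GLK1 and GLK2 activate chloroplast genes. GLK1 (ZS06g0309500) had 1.17, 0 and 5.11 FPKM in the dark series and 0, 29.3 and 0.721 FPKM in the light series and GLK2 (ZS01g0144900) 1.59, 0.0139 and 2.72 FPKM in the dark series and 0.0559, 9.42 and 0.0668 FPKM in the light series. Both were highest at 60 min of light and next at 5 days of darkness.

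**Figure D3:**
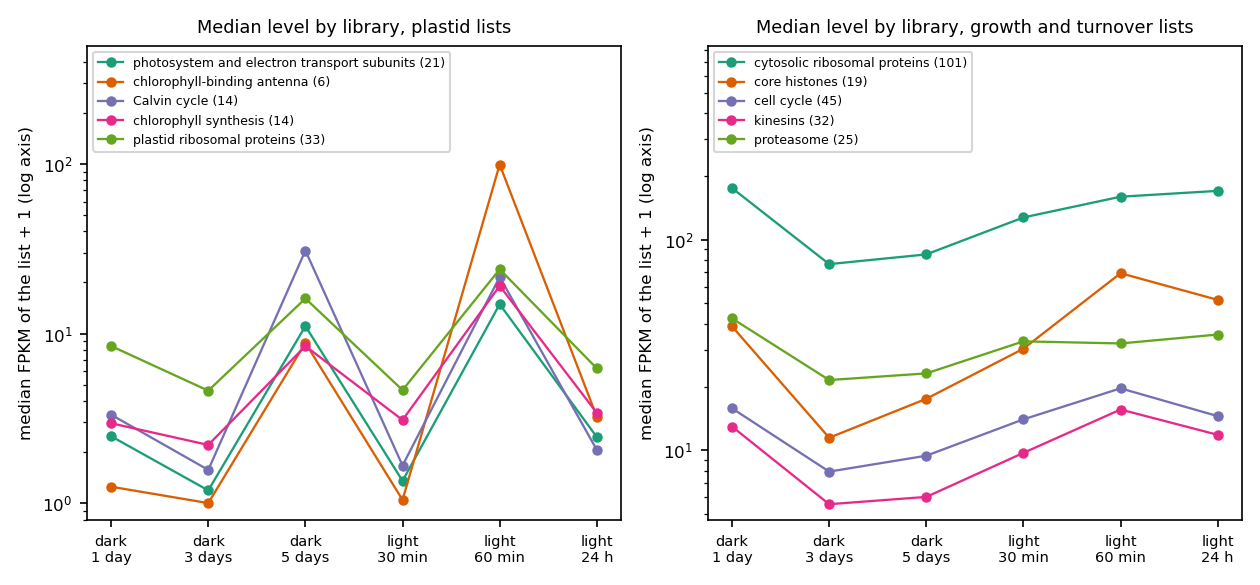
Median FPKM + 1 (log axis) of the measured members of 5 plastid lists (left) and 5 growth and turnover lists (right) in each of the 6 libraries. The plastid lists peaked at 5 days of darkness and 60 min of light, and the growth lists were low at 3 and 5 days of darkness and higher at 1 day and in the light libraries.

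Of 21 measured light receptor and signalling loci 15 lay within 2-fold, a share near the 70.1% over all loci. The list had 1 of 21 measured loci higher (1 above all 3 dark libraries) and 5 lower (2 below all 3), with a median difference of -0.31. HY5 (ZS01g0075000), the bZIP activator of light-grown development, was its only higher member. It had 3.75, 2.05 and 2.26 FPKM at 1, 3 and 5 days of darkness and 8.57, 12.6 and 6.78 FPKM after 30 min, 60 min and 24 h of light, so all 3 light libraries were above all 3 dark libraries. PIF1 (ZS04g0748700), a factor that holds back greening in darkness, had 7.54, 10.02 and 9.96 FPKM at 1, 3 and 5 days of darkness and 5.63, 1.43 and 2.2 FPKM after 30 min, 60 min and 24 h of light. Its 3 dark libraries were above its 3 light libraries. Cryptochrome-1 (ZS02g0441500) was lower at 2.85 FPKM at 24 h of light against 8.69 in 5-day darkness and below all 3 dark libraries, and phototropin-2 (ZS04g0337700), a blue-light receptor kinase, was lower at 6.28 FPKM at 24 h of light against 18.3 in 5-day darkness but above the 1-day and 3-day dark values of 0.758 and 4.28 FPKM. COP1 (ZS02g0659100) had 13.5 FPKM at 24 h of light against 7.87 in 5-day darkness, a difference of 0.71, and was above all 3 dark libraries without passing 2-fold. Phytochrome A (ZS03g0651500), the main receptor in etiolated tissue and the most abundant member of the list in both libraries, had 43.9 FPKM at 24 h of light against 63.6 in 5-day darkness, and 23.2 FPKM at 60 min. Phytochrome B (ZS03g0205300) had 11.6 FPKM at 24 h of light against 14.1 in 5-day darkness and phytochrome C (ZS03g0694400) 2.67 FPKM at 24 h of light against 4.0 in 5-day darkness. Cryptochrome 2 (ZS02g0501600) had 11.3 FPKM at 24 h of light against 9.17 in 5-day darkness, and the DASH cryptochrome (ZS06g0584900), a photolyase relative, 3.6 FPKM at 24 h of light against 1.77 in 5-day darkness. The PIF4 loci ZS07g0052200 and ZS12g0491200 had 2.25 FPKM at 24 h of light against 5.11 in 5-day darkness and 1.01 FPKM at 24 h of light against 2.4 in 5-day darkness, SPA1-related 4 (ZS01g0583900), a partner of COP1, had 8.42 FPKM at 24 h of light against 9.57 in 5-day darkness, DET1 (ZS01g0014700), a repressor of light responses, had 5.75 FPKM at 24 h of light against 7.37 in 5-day darkness, and the phytochrome-associated phosphatase (ZS01g0554200) had 23.9 FPKM at 24 h of light against 37.5 in 5-day darkness. The UV-B receptor name UVR8 was carried by ZS01g0700700 (3.28 FPKM at 24 h of light against 2.49 in 5-day darkness), ZS11g0483400 (4.87 FPKM at 24 h of light against 3.8 in 5-day darkness), ZS01g0583800 (8.19 FPKM at 24 h of light against 9.79 in 5-day darkness) and ZS01g0638700 (8.38 FPKM at 24 h of light against 9.93 in 5-day darkness), none past 2-fold.

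**Figure D4:**
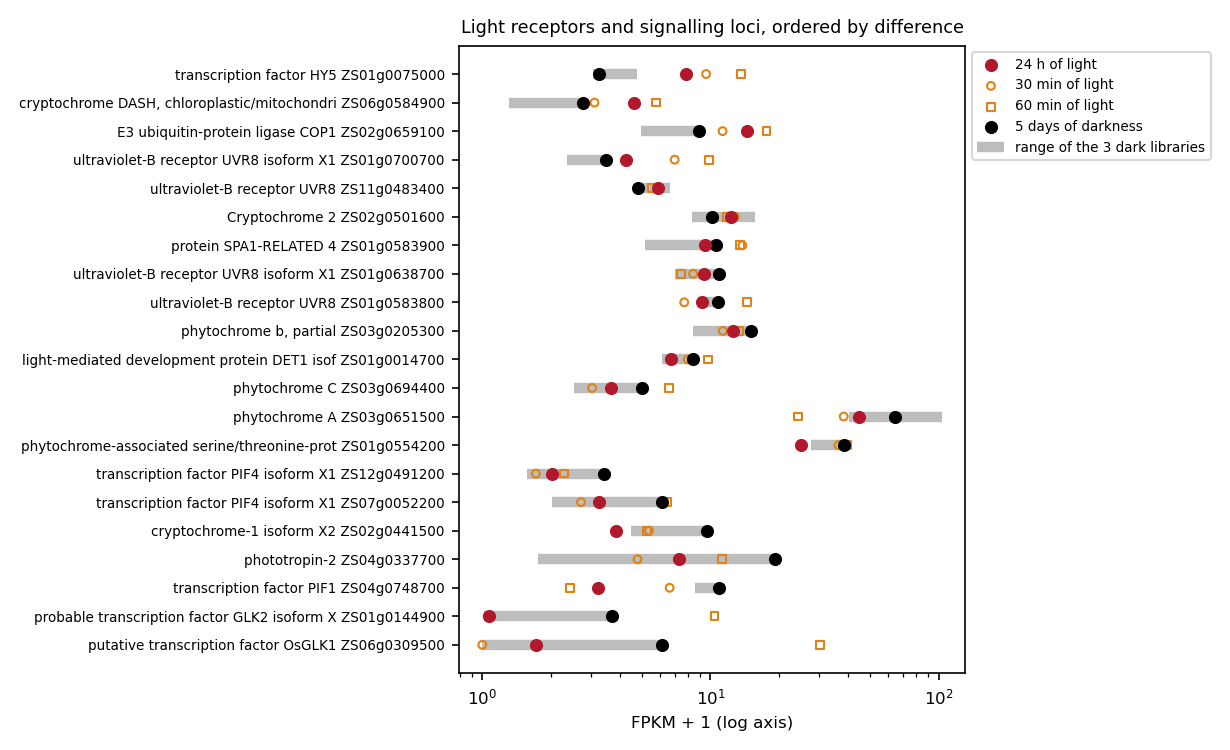
FPKM + 1 (log axis) of the 21 measured light receptor and signalling loci after 24 h of light (red), 30 min and 60 min of light (open symbols) and 5 days of darkness (black), with the range of the 3 dark libraries as a grey bar. Of the loci past 2-fold, HY5 lay above its bar, and PIF1 and cryptochrome-1 lay below theirs.

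Among clock and B-box factors 2 of 24 loci were higher, both above the dark range, and 5 lower, 3 of them below it (median -0.30). The shares over all loci were 13.3% higher and 16.6% lower. Clock transcripts vary with the hour, and the sources used here do not state the hour of sampling. The B-box protein 22 locus ZS05g0122400 had 5.99, 11.4 and 16.9 FPKM at 1, 3 and 5 days of darkness and 3.99, 4.74 and 1.18 FPKM after 30 min, 60 min and 24 h of light, so its light values were all below its dark values. The B-box 22 locus ZS01g0107100 had 1.62 FPKM at 24 h of light against 8.77 in 5-day darkness, inside the dark range. The blue-light F-box receptor adagio-like 3 (ZS11g0484900) had 1.03 FPKM at 24 h of light against 10.7 in 5-day darkness. CONSTANS-LIKE 14 (ZS08g0624300) was lower at 10.1 FPKM at 24 h of light against 31.7 in 5-day darkness, and CONSTANS-LIKE 3 (ZS08g0196900) and B-box 32-like (ZS06g0584200) were higher at 4.19 FPKM at 24 h of light against 1.4 in 5-day darkness and 2.29 FPKM at 24 h of light against 0.0478 in 5-day darkness. GIGANTEA (ZS01g0082000) had 97.1 FPKM at 24 h of light against 57.2 in 5-day darkness, above all 3 dark libraries but within 2-fold.

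Loci of the gibberellin list, matched by name patterns, went in both directions. Of 29 loci 14 were measured, 4 were higher, all above the dark range, and 3 lower (median 0.21). The shares over all loci were 13.3% higher and 16.6% lower. Of the 14 loci 4 were under 1 FPKM at 5 days of darkness. Gibberellin 2-beta-dioxygenases inactivate the hormone. ZS01g0620700 had 1.56, 0.504 and 0.69 FPKM at 1, 3 and 5 days of darkness and 14.6, 7.73 and 3.69 FPKM after 30 min, 60 min and 24 h of light, so all 3 light libraries were above the dark ones, with the highest at 30 min. Gibberellin 2-beta-dioxygenase 8 (ZS04g0634900) was listed at 0 at 5 days of darkness and had 1.17 FPKM after 24 h of light. Dioxygenase 2 (ZS05g0063700) and ZS05g0578000 lay within 2-fold, at 2.19 FPKM at 24 h of light against 1.71 in 5-day darkness and 2.46 FPKM at 24 h of light against 2.06 in 5-day darkness. Gibberellin 20 oxidase 1 (ZS03g0824300), which makes the precursors of active gibberellin, had 0.532, 6.17 and 21.1 FPKM at 1, 3 and 5 days of darkness and 4.29, 2.31 and 22.7 FPKM after 30 min, 60 min and 24 h of light, so 24 h and 5 days of darkness were both high and differed by 0.10. Ent-kaurene synthase 1 (ZS04g0742800;ZS04g0742850), an early step that also serves other diterpenes, was lower at 5.28 FPKM at 24 h of light against 15.3 in 5-day darkness, below the dark range. The ent-kaurene oxidases ZS06g0484500 and ZS06g0484600 had 6.4 FPKM at 24 h of light against 9.38 in 5-day darkness and 1.06 FPKM at 24 h of light against 0.154 in 5-day darkness. The ent-isokaurene C2-hydroxylase-like locus ZS02g0100000;ZS02g0100100 was lower at 1.07 FPKM at 24 h of light against 12.3 in 5-day darkness, and ZS03g0508100 of the same name was higher at 3.88 FPKM at 24 h of light against 1.36 in 5-day darkness. Both are counted here through the name pattern only, and their name gives no step of gibberellin synthesis, inactivation or response. Chitin-inducible gibberellin-responsive protein 2 (ZS07g0481900), a GRAS protein, was lower at 3.92 FPKM at 24 h of light against 22.2 in 5-day darkness. The DELLA protein SLN1 locus ZS01g0521200, a member of the repressor family, was higher at 1.63 FPKM at 24 h of light against 0.168 in 5-day darkness. Scarecrow-like proteins 3 (ZS01g0790500;ZS01g0790700) and 34 (ZS12g0450800) had 7.06 FPKM at 24 h of light against 3.78 in 5-day darkness and 30.2 FPKM at 24 h of light against 35.9 in 5-day darkness.

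Brassinosteroid loci were few, 7 measured, 2 higher and none lower (median 0.65). The receptor kinase BRI1-like 3 (ZS09g0147100) had 15.5 FPKM at 24 h of light against 6.05 in 5-day darkness and the growth repressor IBH1-like (ZS05g0063400) 2.81 FPKM at 24 h of light against 0.835 in 5-day darkness, both above the dark range. The auxin list had 11 of 59 measured loci higher (4 above all 3 dark libraries) and 6 lower (2 below all 3), with a median difference of -0.03, beside 13.3% higher and 16.6% lower over all loci. Early auxin genes were among its lower members. IAA1 (ZS01g0078600), a repressor induced by auxin, had 6.85 FPKM at 24 h of light against 36 in 5-day darkness, below the dark range, and SAUR71 (ZS02g0073000), of a family of small growth proteins, was listed at 0 after 24 h of light against 8.7 FPKM at 5 days of darkness. The synthesis enzyme YUCCA10 (ZS01g0183100) was higher at 10.5 FPKM at 24 h of light against 2.03 in 5-day darkness, and the efflux carrier 1b (ZS11g0039500) at 3.54 FPKM at 24 h of light against 0.183 in 5-day darkness. Both stayed under their 1-day dark values of 11.6 and 5.12 FPKM. The cytokinin list had 1 of 21 loci higher and 3 lower. Cytokinin dehydrogenases degrade the hormone. Dehydrogenase 11 (ZS08g0539300) was lower at 2.57 FPKM at 24 h of light against 15.1 in 5-day darkness, and dehydrogenase 4 (ZS01g0786700) higher at 8.03 FPKM at 24 h of light against 3.27 in 5-day darkness. The response regulator ORR6 (ZS04g0797200) was lower at 0.824 FPKM at 24 h of light against 3.54 in 5-day darkness, below all 3 dark libraries.

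The ethylene list had 8 of 43 measured loci higher (7 above all 3 dark libraries) and 7 lower (4 below all 3), with a median difference of -0.10, beside 13.3% higher and 16.6% lower over all loci. The AIL5 locus (ZS06g0580200), an AP2 factor, had 12 FPKM at 24 h of light against 1.09 in 5-day darkness, with 6.33 FPKM at 30 min. ACC oxidase 1 (ZS09g0318800;ZS09g0318900), the last step of ethylene synthesis, was lower at 0.322 FPKM at 24 h of light against 4.49 in 5-day darkness and below all 3 dark libraries. Response factor 12 (ZS05g0513900) was listed at 0 in all libraries but the 5-day dark one, at 10.6 FPKM. Jasmonate synthesis had 4 of 16 loci higher and 3 lower. 12-oxophytodienoate reductase 1 (ZS06g0138600), of the enzyme family that holds a step of jasmonate synthesis, had 5.34, 6.49 and 3.6 FPKM at 1, 3 and 5 days of darkness and 67.8, 31.4 and 17.1 FPKM after 30 min, 60 min and 24 h of light, above the dark range in each light library and highest at 30 min. Allene oxide synthase 1 (ZS03g0714600) had 10.1 FPKM after 24 h of light and was listed at 0 at 5 days of darkness, but at 23.5 and 4.13 FPKM at 1 and 3 days. JAZ proteins, the repressors that jasmonate induces, had 4 of 10 loci higher, 3 above the dark range, and none lower (median 0.91). TIFY 11c (ZS03g0077200) had 5.77, 10.6 and 11.2 FPKM at 1, 3 and 5 days of darkness and 139, 47.4 and 35.6 FPKM after 30 min, 60 min and 24 h of light. The other higher members were TIFY 11e (ZS10g0303300, 11 FPKM at 24 h of light against 4.13 in 5-day darkness), 11a (ZS03g0077100, 8.93 FPKM at 24 h of light against 3.71 in 5-day darkness) and 11b (ZS03g0077250, 65.7 FPKM at 24 h of light against 32.3 in 5-day darkness).

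Wall-loosening genes were more often higher than lower. Expansins, which loosen the wall without cutting it, had 10 of 24 measured loci higher (5 above all 3 dark libraries) and 3 lower (1 below all 3), with a median difference of 0.87. Of the 10 higher expansins 5 lay inside the dark range. Expansin-B3 (ZS10g0448300) had 84.1, 12.1 and 19.3 FPKM at 1, 3 and 5 days of darkness and 31.8, 48.3 and 97.2 FPKM after 30 min, 60 min and 24 h of light. Expansin-B6 (ZS10g0448200) and B4 (ZS10g0448400) had 72.6 FPKM at 24 h of light against 16.7 in 5-day darkness and 91.1 FPKM at 24 h of light against 22.9 in 5-day darkness, but 145 and 203 FPKM at 1 day of darkness. These 3 beta-expansins are close in name and may share reads. Expansin-A3 (ZS05g0215300) and A33 (ZS05g0215700) were above the dark range, at 11.8 FPKM at 24 h of light against 2.24 in 5-day darkness and 7.83 FPKM at 24 h of light against 1.26 in 5-day darkness. Expansin-A7 (ZS03g0768400) was lower at 2.12 FPKM at 24 h of light against 7.33 in 5-day darkness, below all 3 dark libraries. Xyloglucan endotransglucosylases, which cut and rejoin the wall's tethers, had 4 of 11 loci higher and 2 lower. The protein 24 locus ZS04g0734900 had 10.6 FPKM at 24 h of light against 1.31 in 5-day darkness and ZS04g0735100 of the same name 4.21 FPKM at 24 h of light against 13.5 in 5-day darkness. Cellulose synthases had 1 of 6 loci higher and none lower. CESA6 (ZS07g0191200) had 169, 28.4 and 18.4 FPKM at 1, 3 and 5 days of darkness and 92.8, 112 and 79 FPKM after 30 min, 60 min and 24 h of light, so its 24 h value lay inside the dark range. CESA1 (ZS05g0090500), CESA5 (ZS03g0799300) and CESA2 (ZS03g0749500) had 101 FPKM at 24 h of light against 68.9 in 5-day darkness, 33.9 FPKM at 24 h of light against 23.2 in 5-day darkness and 9.45 FPKM at 24 h of light against 16.3 in 5-day darkness. Of the subunits of secondary walls, CESA4 (ZS01g0613900) and CESA9 (ZS09g0283800) had 23.7 FPKM at 24 h of light against 23.7 in 5-day darkness and 12.2 FPKM at 24 h of light against 13 in 5-day darkness, with differences of 0.00 and -0.08.

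Genes of lignin and wall stiffening were above the dark range more often than all loci, which may rest in part on the filter. Loci under 1 FPKM at 5 days of darkness entered the comparison only through the 24 h library. They were 5 of 31 phenylpropanoid, 7 of 38 peroxidase, 5 of 12 laccase and 5 of 22 flavonoid loci. Over all loci they were 2080 of 20692. Phenylpropanoid and lignin genes had 9 of 31 measured loci higher (9 above all 3 dark libraries) and 3 lower (2 below all 3), with a median difference of 0.72, against 10.0% of all loci above the dark range. The cinnamyl alcohol dehydrogenase 4 locus (ZS11g0550900), at the last step to lignin monomers, had 0.101, 0.807 and 0.237 FPKM at 1, 3 and 5 days of darkness and 1.93, 0.48 and 14.3 FPKM after 30 min, 60 min and 24 h of light. Phenylalanine ammonia-lyase, the entry enzyme, had loci in both directions. ZS05g0436300 had 22.9 FPKM at 24 h of light against 4.62 in 5-day darkness, and 64.5 FPKM at 30 min. ZS02g0502200, far more abundant, had 609 FPKM at 24 h of light against 1367 in 5-day darkness, inside the dark range. Cinnamyl alcohol dehydrogenase 2 (ZS02g0101000) had 122 FPKM at 24 h of light against 42.5 in 5-day darkness. The 8C locus (ZS09g0264800) was lower at 2.16 FPKM at 24 h of light against 10.3 in 5-day darkness, and caffeoylshikimate esterase (ZS01g0234200) was higher at 4.76 FPKM at 24 h of light against 0.798 in 5-day darkness. Class III peroxidases, secreted enzymes that can cross-link the wall, had 16 of 38 measured loci higher (12 above all 3 dark libraries) and 1 lower (0 below all 3), with a median difference of 0.88. Peroxidase 47 (ZS08g0019500) had 0.261, 0.87 and 0.789 FPKM at 1, 3 and 5 days of darkness and 3.46, 2.61 and 32.5 FPKM after 30 min, 60 min and 24 h of light. Peroxidase 2 (ZS03g0281700) had 60.4 FPKM at 24 h of light against 3.21 in 5-day darkness, with 16.7 FPKM at 30 min, and peroxidase P7 (ZS06g0457400) had 48.8 FPKM at 24 h of light against 4.48 in 5-day darkness but 52 and 50.1 FPKM at 1 and 3 days of darkness. Laccases, oxidases that polymerise lignin monomers, had 5 of 12 loci higher, 4 above the dark range, and 1 lower. Laccase-6 (ZS01g0703600) had 3.97 FPKM at 24 h of light against 0.491 in 5-day darkness, and laccase-8 (ZS01g0703700) was lower at 6.7 FPKM at 24 h of light against 18.1 in 5-day darkness. Flavonoid genes had 7 of 22 loci higher, all above the dark range, and 2 lower, both below it (median 0.80). Chalcone synthase 1 (ZS11g0462200), the entry enzyme, was lower, with 17.3, 4.23 and 25.4 FPKM at 1, 3 and 5 days of darkness and 2.19, 11.2 and 1.65 FPKM after 30 min, 60 min and 24 h of light. A flavonol synthase (ZS10g0432400) was higher at 39.1 FPKM at 24 h of light against 9.06 in 5-day darkness, and reached 81.4 FPKM at 30 min.

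Genes of protein synthesis and cell division were higher as groups, and many of the higher members lay inside the dark range. Cytosolic ribosomal proteins had 49 of 101 measured loci higher (21 above all 3 dark libraries) and 1 lower (0 below all 3), with a median difference of 0.99. The list's median level was 169.7 FPKM after 24 h of light, against 84.2 FPKM at 5 days of darkness, and 175 and 75.6 FPKM at 1 and 3 days. The 1-day library was thus as high as the 24 h one. Single ribosomal loci were listed at 0 in scattered libraries. L26-1 (ZS11g0051300) had 85.6 FPKM after 24 h of light and 0 at 5 days of darkness, and L27-3 (ZS10g0455600) had 0 after 24 h of light and 77.5 FPKM at 5 days of darkness, though genes of the ribosome are used by every cell. Such values can be failed estimates. Core histones, made as DNA is copied, had 8 of 19 loci higher, 7 above the dark range, and none lower (median 0.63). Histone H2A.3 (ZS08g0485000) had 29.1, 7.92 and 18.4 FPKM at 1, 3 and 5 days of darkness and 16.9, 49.4 and 55.5 FPKM after 30 min, 60 min and 24 h of light, and H2AXb (ZS12g0395500) had 50.8 FPKM at 24 h of light against 14 in 5-day darkness. Cell cycle genes had 16 of 45 measured loci higher (8 above all 3 dark libraries) and 2 lower (1 below all 3), with a median difference of 0.59. Cyclin-D3-2 (ZS09g0023900), of the step into DNA replication, had 5.35 FPKM at 24 h of light against 0.634 in 5-day darkness. Cyclin-B2-2 (ZS06g0665400), of mitosis, had 28.3, 8.21 and 9.98 FPKM at 1, 3 and 5 days of darkness and 18.8, 34.7 and 35.4 FPKM after 30 min, 60 min and 24 h of light, and its kinase partner CDKB2-1 (ZS08g0604500) had 26.4 FPKM at 24 h of light against 8.43 in 5-day darkness with 32.8 FPKM at 1 day of darkness. The replication clamp PCNA (ZS02g0697400) had 43 FPKM at 24 h of light against 14.5 in 5-day darkness. Cyclin-dependent kinase 12 (ZS08g0047000) was lower at 3.99 FPKM at 24 h of light against 16.5 in 5-day darkness, below all 3 dark libraries. Kinesins, motors of which many act in division, had 15 of 32 loci higher, 4 above the dark range, and none lower (median 0.94). Kinesin-4 (ZS12g0413000) had 10.5 FPKM at 24 h of light against 2.61 in 5-day darkness, beside 9.89 FPKM at 1 day of darkness. Tubulins had 3 of 10 loci higher and none lower, with a median difference of 0.44, while the median level of the list ran the other way, 53.7 FPKM after 24 h of light against 78.4 FPKM at 5 days of darkness. Tubulin beta-2 (ZS03g0014100) had 6.88 FPKM at 24 h of light against 0.729 in 5-day darkness, and beta-8 (ZS03g0587600) 28.8 FPKM at 24 h of light against 12.6 in 5-day darkness with 247 FPKM at 1 day. Proteasome subunits had 6 of 25 loci higher and none lower (median 0.62). The alpha 7-B subunit (ZS09g0396000) had 28 FPKM at 24 h of light against 4.06 in 5-day darkness, above all 3 dark libraries.

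**Figure D5:**
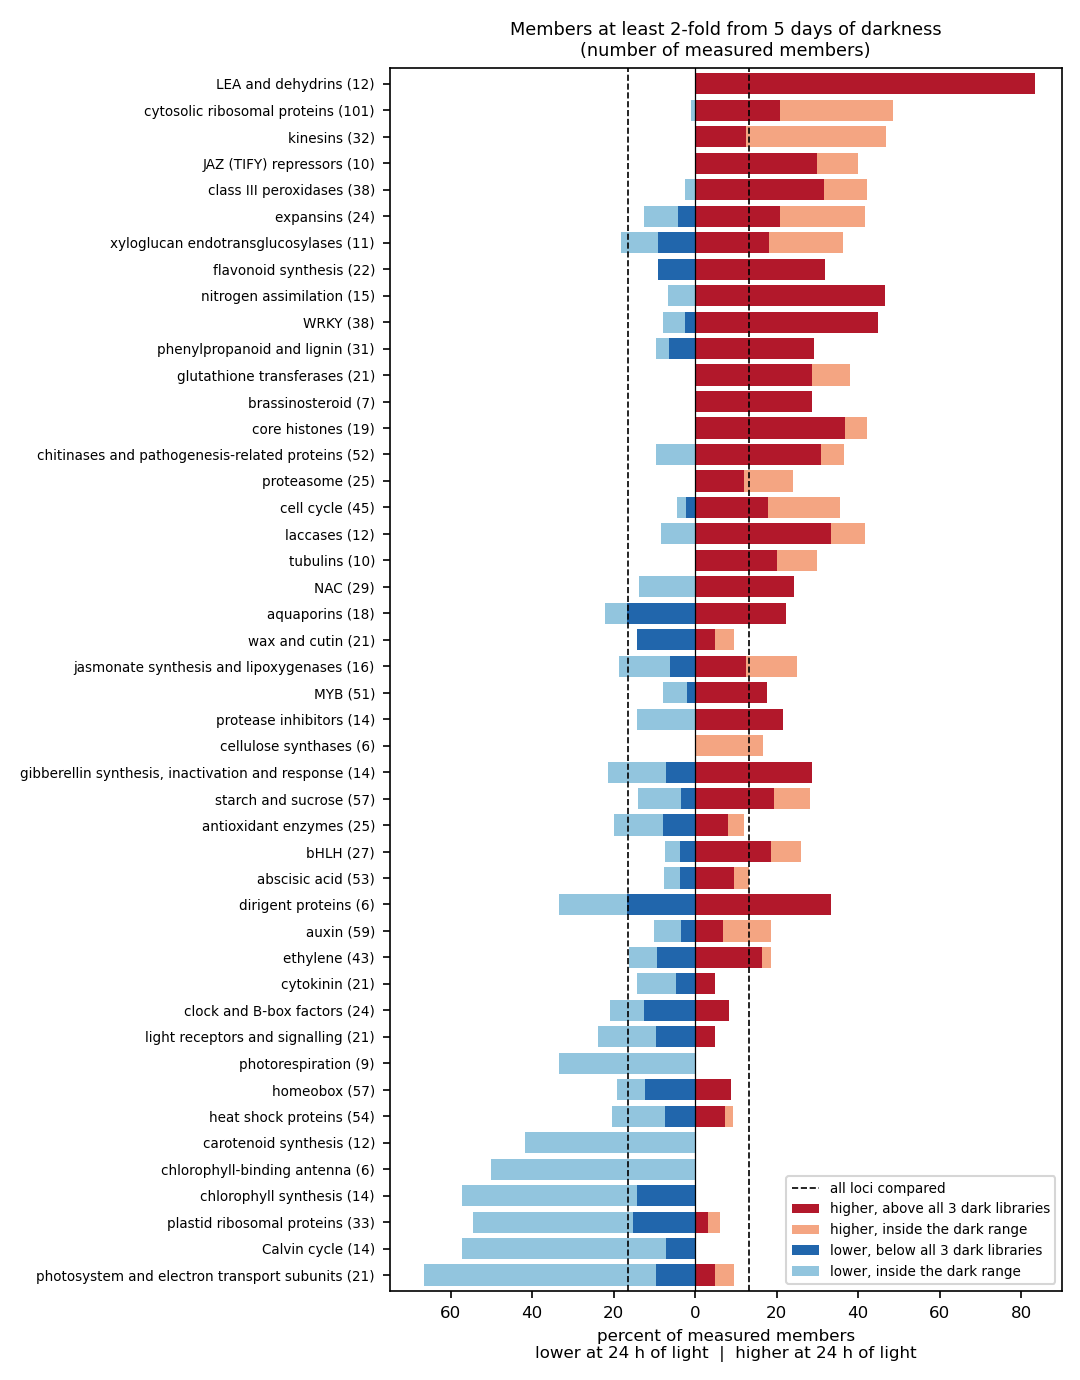
Percent of the measured members of each list (number in brackets, lists of 5 or more) that were higher (right of 0) or lower (left of 0) after 24 h of light than at 5 days of darkness, dark colours outside and pale colours inside the range of the 3 dark libraries, ordered by median difference. Dashed lines mark the 13.3% higher and 16.6% lower over all loci. LEA and dehydrins stand at the top and the photosystem list at the bottom.

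Of the 5 transcription factor families listed, WRKY showed the highest share of members above the dark range. WRKY factors, known from defence, had 17 of 38 loci higher, all above the 3 dark libraries, and 3 lower (median 0.79). Over all loci 10.0% were higher and above the dark range. Of the 38 loci 11 were under 1 FPKM at 5 days of darkness. WRKY40 (ZS09g0278300) had 0, 0 and 0.11 FPKM at 1, 3 and 5 days of darkness and 5.81, 3.54 and 3.52 FPKM after 30 min, 60 min and 24 h of light, and WRKY74 (ZS09g0188800) had 37.7 FPKM at 24 h of light against 9.58 in 5-day darkness. WRKY24 (ZS01g0599700) and WRKY29 (ZS12g0024000) had 5.62 FPKM at 24 h of light against 0.78 in 5-day darkness and 8.55 FPKM at 24 h of light against 1.91 in 5-day darkness. NAC factors had 7 of 29 loci higher, all above the dark range, and 4 lower, none below it. The NAC29 locus ZS12g0030000 had 0.0113, 0 and 1.09 FPKM at 1, 3 and 5 days of darkness and 8.48, 4.66 and 14 FPKM after 30 min, 60 min and 24 h of light, ZS06g0665100 of the same name 12.8 FPKM at 24 h of light against 2.32 in 5-day darkness, while NAC 21/22 (ZS08g0123100) was lower at 4.26 FPKM at 24 h of light against 25.6 in 5-day darkness. MYB factors had 9 of 51 loci higher and 4 lower, beside 13.3% higher and 16.6% lower over all loci. MYB44 (ZS02g0100900) was listed at 0 after 24 h of light, against 4.92 FPKM at 5 days of darkness, and MYB108 (ZS01g0212800) had 14.1 FPKM at 24 h of light against 3.97 in 5-day darkness. Among bHLH factors 7 of 27 were higher. bHLH30 (ZS01g0119100) had 0.00928, 2.97 and 1.78 FPKM at 1, 3 and 5 days of darkness and 5.92, 5.59 and 19.8 FPKM after 30 min, 60 min and 24 h of light, and bHLH137 (ZS09g0366500) was lower at 0.391 FPKM at 24 h of light against 4.99 in 5-day darkness, with 74.3 FPKM at 1 day. Homeobox factors had a share of lower loci near that of all loci, 11 of 57 beside 16.6% over all loci, and 5 loci were higher. Of the lower homeobox loci 7 lay below the dark range, a larger share of the 57 than the 5.64% over all loci. Against the 3-day dark library 9 of 55 loci were higher and 8 lower (median 0.22). HOX6 (ZS09g0387200) had 12.1, 24.5 and 31.8 FPKM at 1, 3 and 5 days of darkness and 6.31, 16.9 and 4.23 FPKM after 30 min, 60 min and 24 h of light. The BEL1-like protein 9 (ZS05g0466500), a partner of KNOX proteins, had 2.82 FPKM at 24 h of light against 22.3 in 5-day darkness, and the KNOX proteins knotted-1-like 1 (ZS01g0217500) and knotted-1-like 6 (ZS03g0658000) had 11.9 FPKM at 24 h of light against 28.7 in 5-day darkness and 2.86 FPKM at 24 h of light against 7.94 in 5-day darkness, all below the dark range. HOX22 (ZS04g0651800) was higher at 42 FPKM at 24 h of light against 9.77 in 5-day darkness.

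Defence genes were more often higher than lower, with a few large differences of opposite sign. Chitinases and pathogenesis-related proteins had 19 of 52 measured loci higher (16 above all 3 dark libraries) and 5 lower (0 below all 3), with a median difference of 0.62. Of the 52 loci 12 were under 1 FPKM at 5 days of darkness and so entered only through the 24 h library. Over all loci this held for 2080 of 20692. The glucanase GII (ZS01g0571800), which cuts callose and fungal glucan, had 22 FPKM at 24 h of light against 1.54 in 5-day darkness. PR1c (ZS01g0319800) was lower, with 0, 0 and 30.4 FPKM at 1, 3 and 5 days of darkness and 0.111, 1.69 and 0.0595 FPKM after 30 min, 60 min and 24 h of light, and chitinases 5 (ZS04g0603200) and 4 (ZS04g0602700) had 0.472 FPKM at 24 h of light against 39.2 in 5-day darkness and 3.7 FPKM at 24 h of light against 51.1 in 5-day darkness. All of these had their highest value at 5 days of darkness, and none was below the dark range. Dirigent proteins steer the coupling of lignan monomers. Dirigent protein 1 (ZS11g0580200) had the most negative difference, -8.82, among loci with a product name, above 0 in both libraries and below the dark range. It had 36.6, 1.86 and 764 FPKM at 1, 3 and 5 days of darkness and 0.401, 503 and 0.689 FPKM after 30 min, 60 min and 24 h of light. It was high at 5 days of darkness and 60 min of light, the libraries with high photosynthesis transcripts. Dirigent protein 4 (ZS10g0236100) had 92.3 FPKM after 24 h of light and was listed at 0 at 5 days of darkness, but at 88 FPKM at 3 days. Glutathione transferases, which detoxify reactive compounds, had 8 of 21 loci higher, 6 above the dark range, and none lower (median 0.72). GSTF2 (ZS01g0627000) had 129.8 FPKM at 24 h of light against 34.9 in 5-day darkness, and the APIC locus (ZS10g0437900) 9.62 FPKM at 24 h of light against 0.502 in 5-day darkness, inside the dark range. Protease inhibitors had 3 of 14 loci higher, all above the dark range, and 2 lower. The Bowman-Birk inhibitor ZS01g0034000 had 13.7 FPKM at 24 h of light against 0.738 in 5-day darkness.

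The heat shock protein list had 5 of 54 measured loci higher (4 above all 3 dark libraries) and 11 lower (4 below all 3), with a median difference of -0.36, and its share of lower loci was near the 16.6% over all loci. Against the 3-day dark library 4 of 54 loci were higher and 4 lower (median 0.20). The 16.9 kDa small heat shock protein ZS01g0041300 was listed at 0 after 24 h of light, against 3.29 FPKM at 5 days of darkness, and a heat shock factor (ZS09g0386300) had 2.59 FPKM at 24 h of light against 13.5 in 5-day darkness. The DnaJ homolog ZS01g0478300, a co-chaperone, was higher at 11.1 FPKM at 24 h of light against 0.406 in 5-day darkness. Antioxidant enzymes had 3 of 25 loci higher and 5 lower, shares near the 13.3% and 16.6% over all loci. Ascorbate peroxidase 8 of the chloroplast (ZS02g0425000) had 1.46 FPKM at 24 h of light against 15 in 5-day darkness, and the superoxide dismutases ZS06g0022800 and ZS06g0052400 had 3.79 FPKM at 24 h of light against 26.3 in 5-day darkness and 7.7 FPKM at 24 h of light against 25.3 in 5-day darkness. Catalase A (ZS02g0023400), which breaks down hydrogen peroxide, had 392, 704 and 517 FPKM at 1, 3 and 5 days of darkness and 331, 259 and 201 FPKM after 30 min, 60 min and 24 h of light, so 24 h was its lowest library. Metallothioneins, small metal-binding proteins and among the most abundant transcripts here, had 3 of 4 loci lower and 1 higher, all inside the dark range. Metallothionein 3B (ZS05g0121200) had 1.03, 435 and 1941 FPKM at 1, 3 and 5 days of darkness and 1222, 489.9 and 692 FPKM after 30 min, 60 min and 24 h of light, and 4A (ZS12g0448300) had 583 FPKM at 24 h of light against 262 in 5-day darkness.

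Nitrogen uptake and assimilation was above the dark range in all of its higher members. Of 15 measured loci 7 were higher, all 7 above the 3 dark libraries, and 1 was lower (median 0.80). Over all loci 13.3% were higher and 10.0% were higher and above the dark range. Of the 15 loci 4 were under 1 FPKM at 5 days of darkness and so entered only through the 24 h library. Cytosolic glutamine synthetase 1-1 (ZS02g0623000), which fixes ammonium into glutamine, had 272, 123 and 79.5 FPKM at 1, 3 and 5 days of darkness and 199.98, 167 and 418 FPKM after 30 min, 60 min and 24 h of light. The chloroplast form of the enzyme (ZS04g0783400) was the lower member, with 6.44 FPKM at 24 h of light against 62.4 in 5-day darkness, and its high libraries were those of the photosynthesis genes. The high-affinity nitrate transporter 2.3 (ZS01g0564800), also counted as a root marker, had 0.218, 0.774 and 0.369 FPKM at 1, 3 and 5 days of darkness and 1.69, 1.16 and 10.9 FPKM after 30 min, 60 min and 24 h of light. The ammonium transporters 1;2 (ZS02g0498400), 1;1 (ZS04g0624800) and 1;3 (ZS02g0498300) had 6.6 FPKM at 24 h of light against 0.726 in 5-day darkness, 18.2 FPKM at 24 h of light against 7.09 in 5-day darkness and 2.68 FPKM against a listed 0. Nitrate reductase (ZS08g0546700) had 7.07 FPKM at 24 h of light against 1.34 in 5-day darkness. Starch and sucrose genes had 16 of 57 measured loci higher (11 above all 3 dark libraries) and 8 lower (2 below all 3), with a median difference of 0.20. SWEET sugar transporters were among the higher ones, SWEET3b (ZS01g0120900) at 6.77 FPKM at 24 h of light against 0.112 in 5-day darkness and SWEET12 (ZS03g0240900) at 5.99 FPKM at 24 h of light against 0.305 in 5-day darkness. The sucrose importer SUT1 (ZS03g0070300) was lower at 30.8 FPKM at 24 h of light against 171 in 5-day darkness, inside the dark range, with 5.49 FPKM at 1 day of darkness. A large subunit of ADP-glucose pyrophosphorylase (ZS03g0674600), the entry to starch, had 0.325 FPKM at 24 h of light against 6.75 in 5-day darkness.

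Water channels went in both directions. Aquaporins had 4 of 18 loci higher, all above the dark range, and 4 lower, 3 of them below it. Over all loci 13.3% were higher and 16.6% lower. TIP2-1 (ZS02g0542000), of the vacuole membrane, had 10.4, 41.9 and 12.7 FPKM at 1, 3 and 5 days of darkness and 34.5, 17.8 and 169.8 FPKM after 30 min, 60 min and 24 h of light, and PIP1-3 (ZS02g0712500), of the plasma membrane, had 89.98 FPKM at 24 h of light against 19.6 in 5-day darkness. PIP2-6 (ZS04g0232000) and NIP2-2 (ZS06g0150100) were lower, at 16 FPKM at 24 h of light against 39.1 in 5-day darkness and 9.4 FPKM at 24 h of light against 35.9 in 5-day darkness. PIP2-7 (ZS09g0398300) had 0 FPKM after 24 h of light and 64.9 FPKM at 5 days of darkness, and stayed under 1 FPKM in all other libraries. Wax and cutin genes had 2 of 21 loci higher and 3 lower, all 3 below the dark range. The dehydratase PASTICCINO (ZS08g0457300), which elongates fatty acids, had 0.125 FPKM at 24 h of light against 6.1 in 5-day darkness, and ECERIFERUM 3 (ZS09g0287200), of alkane wax synthesis, had 0.25 FPKM at 24 h of light against 2.22 in 5-day darkness. 3-ketoacyl-CoA synthase 4 (ZS05g0585000) was higher at 21.1 FPKM at 24 h of light against 4.97 in 5-day darkness, inside the dark range.

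The loci that were lowest relative to darkness included several of unknown function and several with the course of the photosynthesis genes. The order here is that of loci with a product name, above 0 in both libraries and below the dark range. After dirigent protein 1 came a predicted protein (ZS12g0434100) with 0.413, 129 and 133 FPKM at 1, 3 and 5 days of darkness and 0.551, 93.9 and 0.351 FPKM after 30 min, 60 min and 24 h of light. Next was the exoribonuclease 4 locus (ZS03g0738000), of messenger RNA decay, with 7.38, 2.85 and 167 FPKM at 1, 3 and 5 days of darkness and 67.8, 126 and 1.4 FPKM after 30 min, 60 min and 24 h of light. Glutaredoxin-C1 (ZS01g0309600), a redox protein, had 0.0996 FPKM at 24 h of light against 21.3 in 5-day darkness. The locus annotated as plastid NADH dehydrogenase subunit F (ZS04g0334000) had 3.47 FPKM at 24 h of light against 129 in 5-day darkness. A transmembrane 9 protein (ZS02g0608900) had 30.5, 19.1 and 19.5 FPKM at 1, 3 and 5 days of darkness and 20.3, 27.3 and 0.17 FPKM after 30 min, 60 min and 24 h of light, high in all libraries but the 24 h one, and an uncharacterized locus (ZS03g0174100) had 2.6 FPKM at 24 h of light against 64.5 in 5-day darkness, with 12.5 and 13.9 FPKM at 30 and 60 min. Further loci below the dark range were ZS05g0248100 (12.5 FPKM at 24 h of light against 468 in 5-day darkness), ZS01g0088500 (45.3 FPKM at 24 h of light against 1513 in 5-day darkness), ZS05g0120800 (7.01 FPKM at 24 h of light against 149.9 in 5-day darkness), ZS06g0254600 (10.3 FPKM at 24 h of light against 164 in 5-day darkness) and ZS12g0372300 (0.547 FPKM at 24 h of light against 20.8 in 5-day darkness). They have no assigned function. ZS05g0248100 and ZS01g0088500 ranked the libraries in the same order as the subunit F locus ZS04g0334000, with nearly proportional values. Whether these loci are separate changes or share reads was not tested. The most abundant lower locus below the dark range, a predicted protein (ZS11g0591500), had 1407 FPKM at 24 h of light against 3867 in 5-day darkness. A drought-induced S-like ribonuclease (ZS09g0395600) had 21.4 FPKM at 24 h of light against 249 in 5-day darkness, and ZS04g0607300 had 35.3 FPKM at 24 h of light against 435 in 5-day darkness with 566 FPKM at 60 min. At the other end, abundant higher loci with a known function included nicotianamine synthase 1 (ZS03g0203700), which makes a metal chelator, at 773 FPKM at 24 h of light against 343 in 5-day darkness, ribosomal protein S4 (ZS02g0014900) at 589 FPKM at 24 h of light against 228 in 5-day darkness, and cytosolic glyceraldehyde-3-phosphate dehydrogenase 3 (ZS02g0480200), of glycolysis, at 525 FPKM at 24 h of light against 141 in 5-day darkness.

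Loci listed at 0 in 1 of the 2 libraries are given without a fold. There were 827 at 0 after 24 h of light and 504 at 0 at 5 days of darkness. Lipid-transfer protein 2 (ZS05g0568900), a small secreted lipid carrier, was at 0 at 5 days of darkness and 457 FPKM after 24 h of light, with 70.8 FPKM at 60 min. A glycine-rich wall protein (ZS10g0351700) was at 0 at 5 days of darkness and 47.9 FPKM after 24 h of light, and never above 2 FPKM elsewhere. A predicted protein (ZS06g0043900) had 134 FPKM after 24 h of light against a listed 0, yet 54.2 and 88.6 FPKM at 1 and 3 days. In the other direction the proline-rich protein DC2.15 locus (ZS02g0545200) had 548, 216 and 43.2 FPKM at 1, 3 and 5 days of darkness and 196, 0 and 0 FPKM after 30 min, 60 min and 24 h of light. Acetolactate synthase (ZS02g0358200), of branched amino acid synthesis, was at 0 after 24 h of light and between 19 and 59.9 FPKM in the other 5 libraries, and the uncharacterized loci ZS03g0078900, ZS09g0272600 and ZS03g0677600 behaved likewise, with 73.4, 46.4 and 46.2 FPKM at 5 days of darkness. In all, 9 loci were at 0 in the 24 h library alone and at 10 FPKM or more in each of the others, and 4 in the 5-day dark library alone.

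The 30 min and 60 min libraries took no part in choosing the loci, and their levels for the marked loci are given here. The 2074 higher loci above the dark range had median levels of 0.609, 1.07 and 1.02 FPKM at 1, 3 and 5 days of darkness, and 2.94, 2.24 and 6.23 FPKM after 30 min, 60 min and 24 h of light. The 1168 lower loci below the dark range had 3.51, 3.55 and 6.74 FPKM in the dark series and 2.98, 5.06 and 0.926 FPKM in the light series. The 2268 lower loci inside the dark range had 0.509, 0.988 and 5.87 FPKM in darkness and 1.19, 2.55 and 0.9 FPKM in light. The dark and 24 h values of these 3 groups follow from how their loci were chosen. Loci chosen this way can have 30 min and 60 min values apart from the dark ones through the choice alone. No timing is therefore drawn from them. Loci within 2-fold had 6.94, 7.24 and 6.72 FPKM in the light series.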

How the data were processed

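Per the file headers, the authors deposited FPKM values in 1 column for each library. For the aligner, the counter and the rice build, nothing is stated in the sources used here. Bowtie 0.12.2 stands in the submitters' processing notes, beside a mouse build, with no role stated. No counts are given, so the depth behind each value is unknown and no counting interval is given. Whether counting used strand is not given there either, so overlapping antisense loci may share reads.

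Library groups follow the labels. Differences were computed in Python 3.11.15 with pandas 2.3.3 and NumPy 2.4.6 at a pseudocount of 1 FPKM, a minimum of 1 FPKM in either library and a size of 2-fold, and the calculation was tested on simulated data. A locus was marked outside the dark range where its 24 h value lay above the highest or below the lowest of the 3 dark libraries. Product names are the deposited ones, and 3857 compared loci have none. These gave 48 gene lists and 5 marker lists by name patterns, and close paralogs may share reads. The gene name of 2543 compared loci also stands on another row. Where such a locus is named, the values are those of its row with a product name. The members and lists were chosen with earlier results of these data known. Named loci were drawn from the 15 largest of each direction with a product name, values above 0 and outside the dark range, the 5 largest listed at 0, the 10 most abundant, up to 4 per list, and all members of the light, gibberellin, cellulose synthase, chlorophyll and antenna lists. Others were chosen after their values were seen. Settings tried were the pseudocount, the filter, the scaling, the control library and the fold.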

Additional observations from a re-analysis of the deposited data

How the results depend on the processing

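The 4 counts over all loci stayed within 1.5 times their values at a pseudocount of 0.1 FPKM, without loci listed at 0, and under both scalings. Leaving out the filter says nothing about the counts. At a pseudocount of 1 FPKM a locus under 1 FPKM in both libraries cannot reach 2-fold, so the counts cannot change. The counts moved further with 3 settings that are stricter by construction. A pseudocount of 5 FPKM gave 895 higher loci (660 above all 3 dark libraries) and 1119 lower loci (405 below all 3). A minimum of 5 FPKM gave 1628 higher loci (1148 above all 3 dark libraries) and 1905 lower loci (679 below all 3). A fold of 3 gave 870 higher loci (708 above all 3 dark libraries) and 1359 lower loci (526 below all 3). The control library mattered most for the lower loci, 1547 against the 3-day and 1915 against the 1-day dark library. The higher loci rose from 2750 to 3526 against the 3-day and 4124 against the 1-day dark library. With the 5-day dark library left out and the 3-day one as control, 2759 higher loci lay above and 785 lower loci below the remaining dark libraries. The 1-day control and the omission of the 5-day dark library were added after the data were seen. The median over all loci was 0.33 with the 3-day control and 0.18 with the 1-day control, beside -0.03 with the 5-day control. With the 3-day control the median difference turned sign for photosystem subunits (1.07), antenna proteins (1.66), chlorophyll synthesis (0.66), the Calvin cycle (0.45), plastid ribosomal proteins (0.50), metallothioneins (0.0762) and leaf-blade markers (1.52). Loci under 1 FPKM at 3 days entered that comparison only through the 24 h library. With a minimum of 5 FPKM that of early light-induced proteins became -0.28, where fewer loci were measured. Among named loci the 3-day control turned the sign of 22, whose differences became 0.69 (ZS01g0189000), 0.024 (ZS01g0195700), 0.58 (ZS02g0425000), 1.04 (ZS03g0216600;ZS03g0216700), 0.39 (ZS03g0228200), -0.83 (ZS03g0587600), 0.46 (ZS04g0337700), 2.23 (ZS04g0602700), 1.27 (ZS04g0783400), 0.67 (ZS05g0121200), -0.67 (ZS05g0585000), 1.72 (ZS06g0257900), -0.038 (ZS06g0457400), 0.73 (ZS06g0522000), -2.32 (ZS07g0251700), 1.56 (ZS07g0459100), 1.44 (ZS08g0011300), 1.68 (ZS08g0585100), 0.079 (ZS09g0386300), 0.97 (ZS10g0390600), -0.00092 (ZS10g0448200), -0.52 (ZS12g0448300). The cause was not tested for the change of control. No paired analysis was possible because each condition has 1 library. Depth is unknown, so counting error cannot be given for low values.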

Other observations

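The pathway names in the authors' deposited table gave another grouping, independent of name patterns. Of 115 pathways with at least 20 compared loci, the highest median differences (24 h of light over 5 days of darkness) were those of the ribosome (100 higher and 54 lower of 343 loci, median 0.65), the proteasome (12 higher and 2 lower of 81 loci, median 0.55), nitrogen metabolism (9 higher and 4 lower of 39 loci, median 0.49) and lysine biosynthesis (5 higher and 4 lower of 28 loci, median 0.47). Glycolysis and gluconeogenesis had 40 higher and 21 lower of 195 loci, median 0.38, with 29 of the higher loci above all 3 dark libraries, and oxidative phosphorylation, the mitochondrial route to ATP, had 34 higher and 25 lower of 207 loci, median 0.31. At the low end stood photosynthesis (4 higher and 34 lower of 55 loci, median -1.49), with 8 lower loci below the dark range, then riboflavin (3 higher and 4 lower of 20 loci, median -0.49) and vitamin B6 metabolism (2 higher and 8 lower of 41 loci, median -0.42). Over all compared loci 13.3% were higher and 16.6% lower, and 5.64% were lower and below the dark range. The counts of lysine biosynthesis, oxidative phosphorylation and riboflavin metabolism were near the shares higher and lower. Anthocyanin biosynthesis had 2 higher and 6 lower of 20 loci, median -0.33, and 5 of its lower loci lay below the dark range. Plant-pathogen interaction, the pathway with the most loci quoted here, had 126 higher and 69 lower of 812 loci, median 0.13, with 103 of the higher loci above the dark range, beside 10.0% of all loci.

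The most abundant locus after 24 h of light that was called higher carries no product name. ZS07g0251700 had 1235, 50093 and 2637 FPKM at 1, 3 and 5 days of darkness and 1743, 2026 and 10022 FPKM after 30 min, 60 min and 24 h of light, so 3 days of darkness was its highest library and the 24 h value lay inside the dark range. It was chosen after its values were seen.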
